A study of Homo sapiens with 6 samples.

Results

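The cornified envelope is the cross-linked protein shell that keratinocytes assemble under the plasma membrane as they differentiate. The 10 genes followed here encode envelope precursors, the enzyme that joins them and the transcript TINCR: TINCR, PPL, EVPL, TGM1, IVL, SPRR1A, SPRR1B, SPRR3, CSTA and SCEL. The set is a list of gene names, and all 10 were matched by symbol among the 58735 genes of the expression table. The cells were HOK-16B, a human oral keratinocyte line immortalized with papillomavirus sequences, so every library comes from 1 line that divides without limit. There were 3 libraries from cells treated with cannabidiol (CBD, a non-intoxicating cannabis compound) and 3 from cells given the vehicle excipient. By the series description both groups had an inflammatory stimulus after that pretreatment. The labels used here give no stimulus, dose or time, and no unstimulated cells were analysed here. The free-text descriptions carry a cell line number that climbs from HOK-16B up to HOK-21B, while titles and cell line tags give HOK-16B throughout. Nothing in the labels says that replicates were separate cultures, so each p-value reflects variation among these 6 libraries alone, possibly technical.

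In stratified epithelium, basal keratinocytes divide and their suprabasal daughters switch on the envelope programme. Periplakin and envoplakin, with involucrin, form the first scaffold near desmosomes. Transglutaminase 1 then links glutamines to lysines of small proline-rich proteins and other precursors to thicken the shell. TINCR, the terminal differentiation-induced noncoding RNA, was described in epidermis as a cytoplasmic transcript that works with the protein STAU1 to stabilize differentiation mRNAs. It was later found to encode a ubiquitin-like protein, and GENCODE 29 lists the gene as protein-coding. In oral mucosa, SPRR3 and the keratins KRT4 and KRT13 mark suprabasal cells of non-keratinized lining.

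Paired-end RNA sequencing was deposited as FPKM, that is fragments per kilobase of gene length scaled to library depth. The read numbers recovered from those values were 19010494 to 22158614 fragments per CBD library and 18213784 to 21200871 per vehicle library. The 8 keratinocyte markers (KRT5, KRT14, KRT6A, KRT17, CDH1, TP63, ITGB4 and DSG3) were all above 1 FPKM and summed to 11300 to 11800 FPKM in CBD libraries and 9290 to 10900 FPKM in vehicle libraries. Markers of other cell types were low. Of 6 fibroblast markers COL1A1 alone passed 1 FPKM, with means of 8.69 FPKM in CBD libraries and 7.13 FPKM in vehicle libraries. The 6 summed to 8.94 to 8.98 FPKM in CBD libraries and 6.94 to 7.71 FPKM in vehicle libraries. That shift was mostly of COL1A1, and its part in the results was not tested. Of 5 leukocyte markers CD14 alone passed 1 FPKM, the defining marker PTPRC had 1 read in 1 library and CD3E had none. Of 3 endothelial markers 0 passed, and of 3 melanocyte markers 1 did. Base composition moved with the groups. Fragments came from transcripts of 50.7% to 50.8% mean GC in CBD libraries and 49.6% to 50.3% in vehicle libraries, and vehicle replicate 1 stood farthest from the rest (first principal component score 25.1, against -12.7 to 9.36 for the other 5). Pairs of libraries correlated at 0.990 to 0.991 among CBD, at 0.979 to 0.988 among vehicle and at 0.971 to 0.988 across groups (Pearson, log2 values).

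TINCR rose and the other members did not pass the test. TINCR stood at 4.15 ± 0.232 FPKM in CBD cells and 2.58 ± 0.218 FPKM in vehicle cells (SD, n = 3 each). The scaffold genes PPL and EVPL were at 1.33 and 1.31 times their vehicle means without passing, while TGM1, SPRR1B and CSTA lay within 0.925 to 1.11 times. IVL and SPRR3 had no read in any library, and SPRR1A and SCEL lay below the level tested.

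Tests ran on log2(FPKM + 1) by limma over the 12517 genes with a mean of at least 1 FPKM, with a threshold of 0.05 on the Benjamini-Hochberg adjusted p. By that rule 6 members were tested and 4 were not. Of the 6 tested members 1 was called higher and 0 lower, against 0.256% of all tested genes called higher and 0.0959% called lower. The members were chosen with earlier results of these data known, so their count beside that share is no test of the set. Called lower by limma-voom on the recovered reads were also 0 members, against 6.68% of all tested genes. With 6 members tested, 0 is close to that share. A negative difference with an unadjusted p under 0.05 by limma was found in 0 members. Over all tested genes 3926 had such a p in either direction, and their share by direction was not computed. The members' median difference was 0.25, beside -0.013 over all tested genes. In 5 of 6 the groups did not overlap, 4 with CBD above and 1 with CBD below. That was also so for 40.7% of all tested genes, 18.7% with CBD above and 21.9% with CBD below. Cells of a differentiated type becoming more or fewer and a change in RNA per cell cannot be told apart in such bulk libraries. Together the 10 genes took 0.0619% to 0.0641% of fragments in CBD libraries and 0.0454% to 0.0538% in vehicle libraries. PPL and EVPL, which did not pass, made up 77.5% to 78.2% of those fragments in CBD libraries and 72.0% to 76.1% in vehicle libraries.

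**Figure D1:**
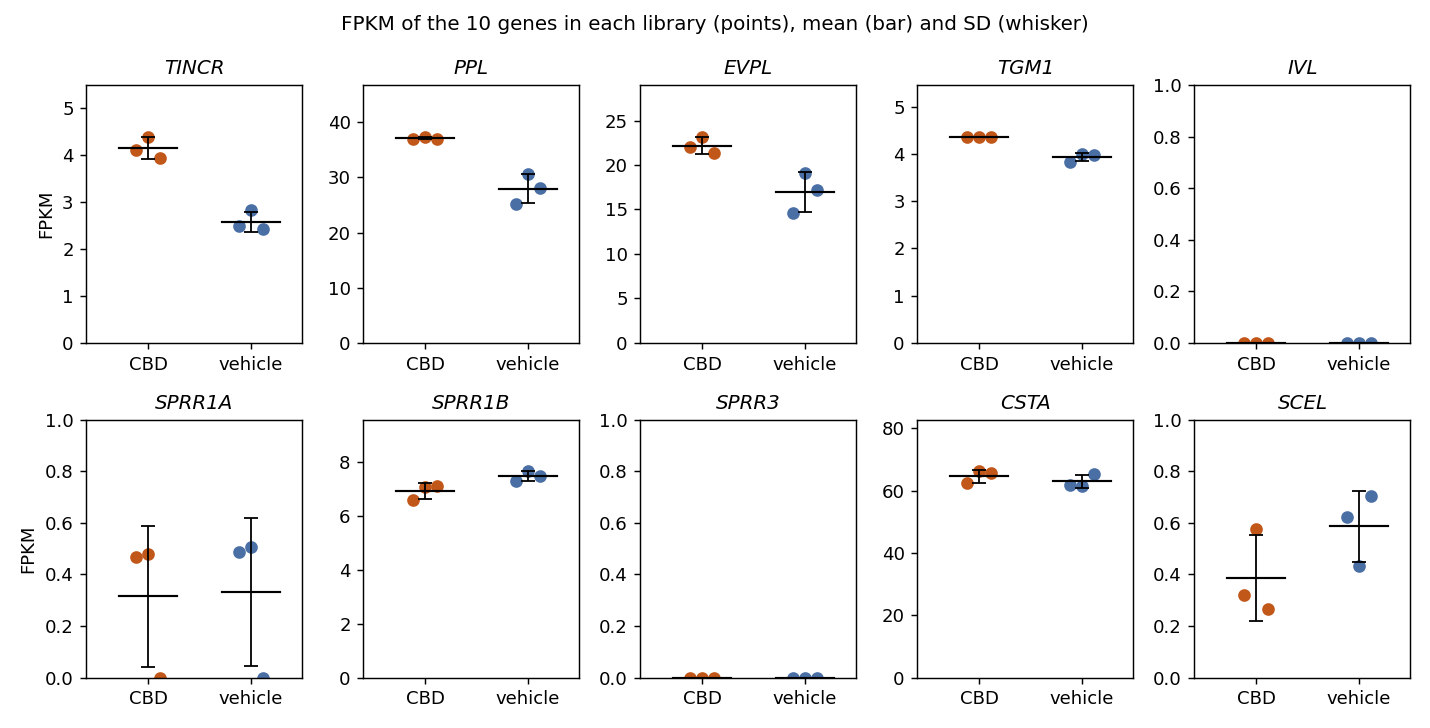
FPKM of each of the 10 genes in the 3 CBD libraries (orange) and the 3 vehicle libraries (blue), with the mean as a bar and the SD as a whisker; each panel has its own linear axis from 0. TINCR, PPL, EVPL and TGM1 lie higher in every CBD library, SPRR1B lies slightly lower, and IVL and SPRR3 are at 0 in all 6.

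TINCR lies on the minus strand of chromosome 19 (5558167 to 5578349, GENCODE 29 on GRCh38) and has 6 exon blocks totalling 4429 bases. It had 4.12, 4.40 and 3.94 FPKM in CBD replicates 1 to 3, against 2.50, 2.83 and 2.42 FPKM in vehicle replicates 1 to 3. The recovered reads were 435, 451 and 360 in CBD libraries and 253, 275 and 210 in vehicle libraries. Each CBD library exceeded each vehicle library, and the gap between the groups was wider than either group's own range. The ratio of mean FPKM was 1.61. On the log2(FPKM + 1) scale, where changes of weakly expressed genes come out smaller than they are, the difference was 0.53 ± 0.07 (SE; limma adjusted p = 0.0452; 95% interval 0.36 to 0.69), a rise seen in 3 of 3 CBD libraries. A larger positive difference was found in 1.59% of tested genes. The exact permutation p was 0.1 (two-sided), the smallest that 3 against 3 can give. With limma-voom on the recovered reads the difference was 0.69 (adjusted p = 0.00853).

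The call was close to the threshold. It did not pass without CBD replicate 1, 2 or 3 (limma adjusted p = 0.160, 0.198 and 0.177), without vehicle replicate 1 (0.0508) or without vehicle replicate 3 (0.167), while the TINCR difference stayed between 0.49 and 0.57 in these and in the fit without vehicle replicate 2 (0.0173). TINCR's transcripts have a GC content of 59.5%, and once a GC trend per library was taken out its difference was 0.37 (95% interval 0.22 to 0.52; limma adjusted p = 0.0823). The pseudogene SNRPEP4 lies inside TINCR on the same strand but shares 0 exon bases with it. SNRPEP4 had 5.71, 8.67 and 6.60 FPKM in CBD libraries and 7.37, 6.53 and 7.86 FPKM in vehicle libraries, values that overlap.

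The double-stranded RNA-binding gene STAU1, named here for its role with TINCR, averaged 52.5 ± 2.28 FPKM in CBD cells and 55.1 ± 5.41 FPKM in vehicle cells (SD, n = 3 each). The groups overlap, and the difference was -0.07 (limma adjusted p = 0.580; 95% interval -0.25 to 0.12). Over the 6 libraries the tested genes whose log2 values followed TINCR most closely were UQCR10, a subunit of respiratory complex III (Pearson r = 0.998), CDKN1C, a cyclin-dependent kinase inhibitor (0.998), DLK2, a Delta-like membrane protein gene (0.998), PRDM11 (0.995) and EHD2, a membrane-trafficking ATPase gene (0.994). These points share libraries and the group difference, and 335 genes (2.68% of those tested) had an r of at least 0.95.

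PPL encodes periplakin and EVPL envoplakin, 2 plakins that bind each other and tie the nascent envelope to desmosomes and keratin filaments. PPL (chromosome 16, 4882507 to 4960741, minus strand) had 37.0, 37.4 and 37.0 FPKM in CBD libraries and 25.2, 30.6 and 28.1 FPKM in vehicle libraries. The CBD values were nearly identical to each other and all above the vehicle values, among which replicate 1 was the lowest. The PPL difference was 0.40 ± 0.07 (SE; limma adjusted p = 0.0557; 95% interval 0.23 to 0.57), which did not pass. EVPL (chromosome 17, 76004502 to 76027452, minus strand) had 22.0, 23.2 and 21.3 FPKM in CBD libraries and 14.6, 19.1 and 17.2 FPKM in vehicle libraries. Again each CBD library exceeded each vehicle library, with vehicle replicate 1 lowest. The EVPL difference was 0.38 ± 0.09 (SE; limma adjusted p = 0.0725; 95% interval 0.15 to 0.60) and did not pass either. A larger difference was found in 3.71% of tested genes for PPL and in 4.43% for EVPL.

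On recovered reads limma-voom called both higher, at 0.42 for PPL (adjusted p = 0.0105) and 0.40 for EVPL (0.0222). With TINCR these were 3 members called higher by that model, which called 7.26% of all tested genes higher. With the GC trend removed PPL was at 0.25 (limma adjusted p = 0.0823; 95% interval 0.15 to 0.34) and EVPL at 0.12 (0.285; -0.0041 to 0.24). Their transcripts have GC contents of 59.6% and 64.9%, against a median of 48.9% over tested genes. Without vehicle replicate 1 PPL was at 0.33 (limma adjusted p = 0.0499) and EVPL at 0.28 (0.0651). Without vehicle replicate 2 PPL was at 0.47 (0.0189) and EVPL at 0.46 (0.0249). Neither passed without CBD replicate 1, 2 or 3 (limma adjusted p = 0.174, 0.209 and 0.177 for PPL, and 0.197, 0.224 and 0.186 for EVPL) or without vehicle replicate 3 (0.167 for PPL and 0.176 for EVPL).

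The share of all tested genes called higher differed between settings, and so did the members' count. TINCR was the 1 member called with a pseudocount of 0.1, with median-ratio scaling and after quantile normalization, where 0.248%, 0.375% and 0.431% of genes were called higher. At a mean FPKM of at least 5, which leaves TINCR and TGM1 untested, 2 members were called higher beside 5.87% of genes. With library quality weights it was 3 members beside 16.9% of genes, without vehicle replicate 2 it was 3 beside 10.1%, and without vehicle replicate 1 it was PPL alone beside 0.471%. By limma-voom, as above, it was 3 beside 7.26%. In the remaining alternatives 0 members were called, with 0% to 0.0240% of genes called higher (0.0160% with equal FPKM sums and 0.00799% without CBD replicate 3).

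Within each library PPL and EVPL kept a similar proportion. The ratio of PPL to EVPL in FPKM was 1.68, 1.61 and 1.73 in CBD libraries and 1.73, 1.60 and 1.63 in vehicle libraries, which overlap (exact permutation p = 0.7, two-sided). DSP, which encodes the desmosomal plakin desmoplakin, had 159, 163 and 157 FPKM in CBD libraries and 154, 156 and 161 FPKM in vehicle libraries (difference 0.03, limma adjusted p = 0.708). The PPL to DSP ratio was 0.233 ± 0.00338 in CBD libraries and 0.178 ± 0.0165 in vehicle libraries, and the EVPL to DSP ratio 0.139 ± 0.00294 in CBD libraries and 0.108 ± 0.0139 in vehicle libraries (SD, n = 3; exact permutation p = 0.1 for each, the smallest possible, so these ratios cannot pass 0.05). With DSP nearly level, they follow PPL and EVPL themselves. DSP transcripts are at 48.2% GC, and the part of base composition in these ratios was not tested. The TINCR to PPL ratio was 0.111, 0.118 and 0.107 in CBD libraries and 0.0991, 0.0925 and 0.0861 in vehicle libraries. The groups do not overlap in that ratio, with an exact permutation p of 0.1, which 3 against 3 cannot go below.

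TGM1 encodes transglutaminase 1, the membrane-bound enzyme that cross-links envelope proteins and whose loss causes lamellar ichthyosis. The gene (chromosome 14, 24249114 to 24264432, minus strand) had 4.35, 4.36 and 4.37 FPKM in CBD libraries and 3.84, 3.99 and 3.97 FPKM in vehicle libraries. The groups do not overlap, and the distance between them was small, with a ratio of means of 1.11. The difference was 0.12 ± 0.05 (SE; limma adjusted p = 0.147; 95% interval 0.01 to 0.24). It turned to -0.03 with the GC trend removed (limma adjusted p = 0.803; 95% interval -0.15 to 0.09). TGM1 has a GC content of 59.2%, close to that of TINCR. The TINCR to TGM1 ratio was 0.945, 1.01 and 0.901 in CBD libraries and 0.650, 0.709 and 0.609 in vehicle libraries, again with no overlap and at the smallest exact permutation p of 0.1.

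**Figure D2:**
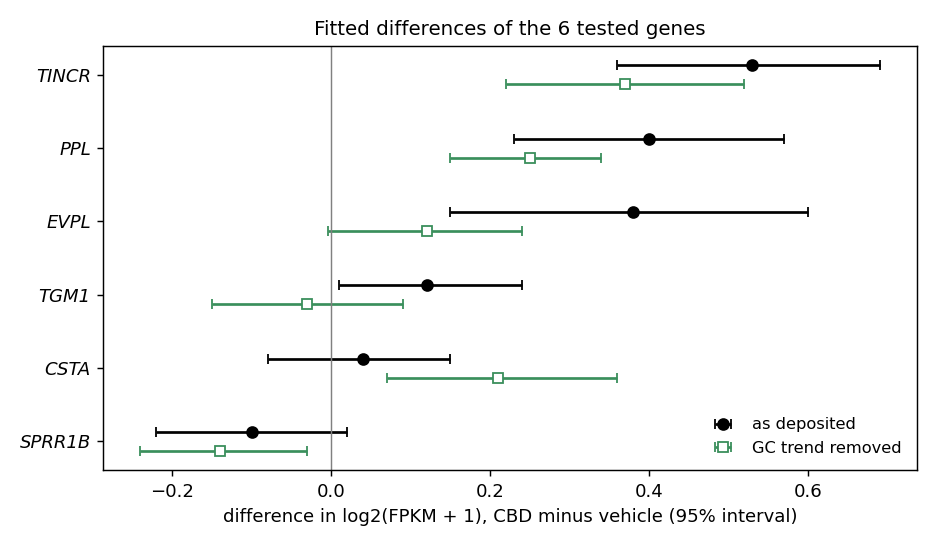
Fitted difference in log2(FPKM + 1), CBD minus vehicle, with its 95% interval for the 6 tested genes, as deposited (black circles) and after a GC trend per library was taken out (green squares). TINCR and PPL stay above 0 in both, at 0.53 and 0.37 and at 0.40 and 0.25, while TGM1 is at 0.12 and -0.03.

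The substrates of the enzyme include involucrin and the small proline-rich proteins, whose genes sit side by side in the epidermal differentiation complex. IVL, SPRR1A, SPRR3 and SPRR1B lie on the plus strand within 124356 bases of chromosome 1 (152908545 to 153032900). Of this group SPRR1B alone had more than 3 reads in any library. RefSeq promoters (GRCh38.p14, 250 bases before to 50 after the start) were found for 5 of the 10 members and are shown because neighbours in 1 cluster were read at such different levels. They are SPRR1B (chr1:153030953-153031252), SPRR1A (chr1:152983831-152984130), SPRR3 (chr1:153001499-153001798), IVL (chr1:152908296-152908595) and SCEL (chr13:77535456-77535755), all on the plus strand, 5′ to 3′. Capitals mark matches to TGANTCA, with any base at N, a loosened form of the core bound by AP-1, the FOS and JUN dimers:
SPRR1B: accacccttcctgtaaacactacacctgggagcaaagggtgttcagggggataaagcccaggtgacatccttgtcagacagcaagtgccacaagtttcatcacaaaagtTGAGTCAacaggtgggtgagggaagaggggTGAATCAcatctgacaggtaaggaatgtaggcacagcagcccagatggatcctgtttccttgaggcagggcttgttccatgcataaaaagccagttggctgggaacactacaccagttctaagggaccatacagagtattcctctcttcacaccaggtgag
SPRR1A: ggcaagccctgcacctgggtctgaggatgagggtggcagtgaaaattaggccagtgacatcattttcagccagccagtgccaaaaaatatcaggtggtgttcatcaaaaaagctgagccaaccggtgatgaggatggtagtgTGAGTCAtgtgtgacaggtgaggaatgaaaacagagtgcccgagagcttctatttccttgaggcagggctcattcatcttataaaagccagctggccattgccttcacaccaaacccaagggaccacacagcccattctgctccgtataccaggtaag
SPRR3: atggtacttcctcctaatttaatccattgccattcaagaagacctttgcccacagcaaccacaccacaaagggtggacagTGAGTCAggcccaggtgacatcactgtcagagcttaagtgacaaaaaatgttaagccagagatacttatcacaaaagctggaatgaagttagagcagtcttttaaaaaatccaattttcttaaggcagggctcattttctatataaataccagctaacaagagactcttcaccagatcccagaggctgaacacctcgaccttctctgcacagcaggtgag
IVL: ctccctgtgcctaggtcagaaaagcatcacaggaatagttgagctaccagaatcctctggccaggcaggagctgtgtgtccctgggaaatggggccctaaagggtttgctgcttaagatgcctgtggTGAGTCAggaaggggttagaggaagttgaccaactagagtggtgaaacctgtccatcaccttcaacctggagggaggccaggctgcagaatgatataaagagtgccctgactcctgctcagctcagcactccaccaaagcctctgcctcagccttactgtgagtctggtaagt
SCEL: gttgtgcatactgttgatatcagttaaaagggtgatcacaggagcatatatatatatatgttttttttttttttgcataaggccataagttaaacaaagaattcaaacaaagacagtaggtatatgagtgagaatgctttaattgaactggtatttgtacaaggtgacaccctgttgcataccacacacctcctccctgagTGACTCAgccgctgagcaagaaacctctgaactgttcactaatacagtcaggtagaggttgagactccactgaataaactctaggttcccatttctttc

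Each of the 5 held TGANTCA, searched on both strands, against 7.71% of 35116 promoters of the same length. SPRR1B had 2 matches, TGAGTCA and TGAATCA, beginning at positions -141 and -111 from the start. The others had 1 each, TGAGTCA at -108 in SPRR1A, at -170 in SPRR3 and at -123 in IVL, and TGACTCA at -49 in SCEL. TATAAA was found in SPRR1A, SPRR3 and IVL, and in 11.5% of all promoters. GGGCGG, the GC box, was in 0 of the 5 and in 45.0% of all promoters. A match is a string of letters and no measure of binding. IVL, SPRR1A, SPRR3 and SPRR1B are neighbours in 1 cluster, so the 5 promoters are not independent of each other. No promoter was found for TINCR, PPL, EVPL, TGM1 and CSTA, which were not searched. The SPRR1B and IVL promoters both held the AP-1 string although SPRR1B was read and IVL was not.

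SPRR1B (chromosome 1, 153031202 to 153032900) had 6.56, 7.04 and 7.11 FPKM in CBD libraries and 7.27, 7.64 and 7.48 FPKM in vehicle libraries. It was the member with every CBD value below every vehicle value, by a narrow margin. Its reads were few, with at most 104 in any library and 91 in the lowest of either group. The SPRR1B difference was -0.10 ± 0.05 (SE; limma adjusted p = 0.225; 95% interval -0.22 to 0.02). With the GC trend removed it was -0.14 (limma adjusted p = 0.196; 95% interval -0.24 to -0.03). By limma-voom on the recovered reads it was -0.11 (adjusted p = 0.616). SPRR1B passed in none of these fits. SPRR1B is a close relative of SPRR1A, and how the authors' counting treated reads shared by such copies was not given in the sources used here.

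SPRR1A had 3, 3 and 0 reads in CBD libraries and 3, 3 and 0 reads in vehicle libraries, or at most 0.506 FPKM. That is at the floor of 3 reads, which for this gene is 0.466 to 0.566 FPKM. Its model in the annotation is 1 block of 270 bases (152985231 to 152985500), which begins downstream of the RefSeq promoter window. No difference could be detected at this depth (exact permutation p = 0.6). IVL and SPRR3 had 0 reads in all 6 libraries. A count of 0 allows up to 0.0584 to 0.0710 FPKM of IVL and 0.0873 to 0.106 FPKM of SPRR3, limits that cover counting error only.

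CSTA encodes cystatin A, an inhibitor of cysteine proteases that is itself built into the envelope. It was the most abundant member per length, above 96.1% of tested genes in mean FPKM. CSTA (chromosome 3, 122325244 to 122341972, plus strand) had 62.3, 66.2 and 65.5 FPKM in CBD libraries and 61.9, 61.6 and 65.3 FPKM in vehicle libraries. The groups overlap, with vehicle replicate 3 inside the CBD range. The CSTA difference was 0.04 ± 0.05 (SE; limma adjusted p = 0.609; 95% interval -0.08 to 0.15). Its transcripts have a GC content of 37.3%. The CSTA difference was 0.21 with the GC trend removed (limma adjusted p = 0.163; 95% interval 0.07 to 0.36), but -0.03 after quantile normalization (0.700).

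SCEL encodes sciellin, a precursor named for its place in the envelope of stratified epithelia. SCEL (chromosome 13, 77535674 to 77645263, plus strand) had 32, 56 and 23 reads in CBD libraries and 60, 40 and 58 reads in vehicle libraries. The values, 0.319, 0.575 and 0.265 FPKM in CBD libraries and 0.624, 0.433 and 0.703 FPKM in vehicle libraries, overlap. Fitted with no filter on low values the difference was -0.20 (limma adjusted p = 0.524; 95% interval -0.49 to 0.10). The antisense gene SCEL-AS1 shares 144 exon bases with SCEL and had 0 reads in every library.

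By level in FPKM, which is per length, the order in both groups was CSTA, PPL, EVPL and SPRR1B. TGM1 and TINCR came next. The mean of TINCR lay below that of TGM1 in both groups (4.15 against 4.36 FPKM in CBD, 2.58 against 3.93 FPKM in vehicle). In CBD libraries TINCR (3.94 to 4.40 FPKM) spanned the range of TGM1 (4.35 to 4.37 FPKM), while in vehicle libraries TINCR (2.42 to 2.83 FPKM) lay below TGM1 (3.84 to 3.99 FPKM) without overlap. SCEL followed and overlapped SPRR1A in both groups.

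**Figure D3:**
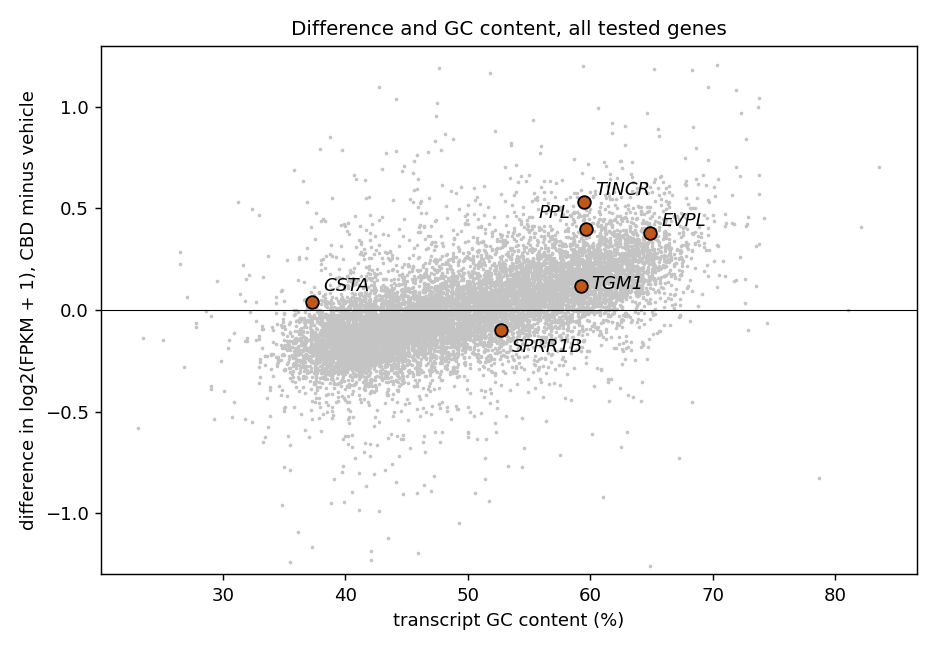
Transcript GC content (percent, x axis) against the difference in log2(FPKM + 1), CBD minus vehicle (y axis), for all tested genes (grey) and the 6 tested members (orange); the y axis stops at 1.3 either way, leaving out 7 genes. TINCR, PPL and TGM1 have GC contents of 59.5%, 59.6% and 59.2% and lie at 0.53, 0.40 and 0.12. The part of base composition in these differences was not tested.

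Across all tested genes the difference was larger at higher transcript GC content (Spearman 0.67 over 12510 genes, which share the libraries and are not independent). The 4 members with CBD above vehicle, TINCR, PPL, EVPL and TGM1, have GC contents of 59.2% to 64.9%. SPRR1B, with CBD below vehicle, is at 52.7%, and CSTA, whose groups overlap, is at 37.3%. Base composition differed between the groups, and its part in the members' differences was not tested. With the trend removed TINCR and PPL had unadjusted p of 0.000603 and 0.000495 by limma. CSTA had 0.0105, SPRR1B 0.0193, EVPL 0.0561 and TGM1 0.604 by the same fit, and 0 members were called. That fit called 0.0240% of tested genes higher and 0.0160% lower, and 2277 genes had an unadjusted p under 0.05.

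The rest of the cornification programme was followed in 77 further genes, of which 34 were tested and 43 were below the level tested. KLF4 was called higher and the other 33 did not pass, with 0 called lower. The median difference of the 34 was 0.06. By limma-voom on the recovered reads 10 of the 34 were called higher and 0 lower, against 7.26% of all tested genes higher and 6.68% lower. These lists too were chosen with earlier results of these data known, so such counts are no test of them. Of the 26 other envelope proteins only 4 reached the level tested and 7 had no read in any library. Those 7, named for that reason, were LORICRIN, RPTN, SPRR2B, SPRR2F, SPRR2G, LCE3A and KPRP. Among the 4, the membrane-binding annexin gene ANXA1 had 71.8, 71.1 and 73.3 FPKM in CBD libraries and 95.7, 75.8 and 82.2 FPKM in vehicle libraries (-0.22; limma adjusted p = 0.132). PI3, which encodes the protease inhibitor elafin, averaged 12.7 ± 0.768 FPKM in CBD cells and 15.2 ± 2.52 FPKM in vehicle cells (0.225), and cornifelin, CNFN, 2.26 ± 0.623 FPKM in CBD cells and 2.75 ± 1.24 FPKM in vehicle cells (SD, n = 3; limma adjusted p = 0.661).

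Of 12 genes for cross-linking and protease control 7 were tested, all with a difference above 0 and none called by limma. By limma-voom 3 were called higher, beside 7.26% of all tested genes. The median difference of the 7 was 0.23, and 0.10 with the GC trend removed. TGM2, TGM3 and TGM5, the other transglutaminases listed, were below the level tested. CTSD, the lysosomal protease cathepsin D, had 128, 134 and 126 FPKM in CBD libraries and 59.3, 107 and 86.0 FPKM in vehicle libraries (0.66; limma adjusted p = 0.0875), with vehicle replicate 1 lowest. The CTSD difference was 0.43 with the GC trend removed (95% interval 0.08 to 0.78). The membrane serine proteases PRSS8 (prostasin) and ST14 (matriptase), which act in 1 cascade of epidermal barrier formation, were at 26.7 ± 0.513 and 31.2 ± 1.69 FPKM in CBD cells and at 22.5 ± 1.82 and 26.5 ± 1.98 FPKM in vehicle cells. Neither passed (limma adjusted p = 0.0782 and 0.0889), and their differences of 0.24 and 0.23 were 0.05 and 0.03 with the GC trend removed.

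Of 20 regulators of keratinocyte differentiation 15 were tested, 12 with a difference above 0, and 6 were called higher and 0 lower by limma-voom. Of all tested genes that model called 7.26% higher and 6.68% lower. The median difference of the 15 was 0.16, and 0.12 with the GC trend removed. KLF4, a transcription factor needed for the epidermal barrier, rose, at 16.2, 17.1 and 16.6 FPKM in CBD libraries and 12.6, 13.2 and 12.5 FPKM in vehicle libraries (0.36 ± 0.05, SE; limma adjusted p = 0.0452). With the GC trend removed the KLF4 difference was 0.28 (95% interval 0.19 to 0.38; limma adjusted p = 0.0823). Without CBD replicate 1, 2 or 3, or without vehicle replicate 3, 0 of the 34 further genes were called. MAF, a leucine zipper transcription factor, had 3.41, 4.24 and 3.68 FPKM in CBD libraries and 1.78, 2.84 and 2.32 FPKM in vehicle libraries. Its groups do not overlap, and it did not pass by limma (0.54; adjusted p = 0.0683) but did by limma-voom (0.73; adjusted p = 0.0174). With the GC trend removed it was at 0.50 (limma adjusted p = 0.119). CEBPA, a C/EBP factor of suprabasal cells, had 2.88, 2.69 and 2.71 FPKM in CBD libraries and 1.28, 1.82 and 1.24 FPKM in vehicle libraries (0.63; limma adjusted p = 0.0547). It was at 0.95 by limma-voom (adjusted p = 0.0132) and at 0.35 with the GC trend removed (limma adjusted p = 0.0951). Antisense genes overlap exons of CEBPA and PRSS8, listed at 0 FPKM, of ASAH1 (0.133 FPKM on average) and of CTSD (1.57 FPKM), and as the strand setting is not known here their reads cannot be told apart. CTSD also shares 1304 exon bases with the protein-coding AC068580.4 (0.0238 FPKM).

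Of 14 genes for barrier lipids 7 were tested and 0 called, by limma and by limma-voom, with 2 differences above 0 and 5 below. The shares of all tested genes called by each model are those given above. SMPD1, acid sphingomyelinase, was at 13.1 ± 0.189 FPKM in CBD cells and 11.4 ± 0.142 FPKM in vehicle cells (0.18; limma adjusted p = 0.0683). UGCG, glucosylceramide synthase, was at 9.50 ± 0.367 FPKM in CBD cells and 10.5 ± 0.494 FPKM in vehicle cells (-0.14; 0.144). ASAH1, acid ceramidase, was at 5.01 ± 0.0550 FPKM in CBD cells and 5.51 ± 0.371 FPKM in vehicle cells (-0.11; 0.222). With the GC trend removed the difference was 0.02 for SMPD1 and for ASAH1, and the interval for UGCG ran from -0.10 to 0.11. Among 5 suprabasal keratins KRT10 was tested, at 8.11, 8.91 and 5.92 FPKM in CBD libraries and 5.18, 4.97 and 5.40 FPKM in vehicle libraries (0.47; limma adjusted p = 0.0811). It was at 0.55 by limma-voom (adjusted p = 0.0351) and at 0.46 with the GC trend removed (limma adjusted p = 0.156). KRT10 overlaps TMEM99 by 56 exon bases. KRT2 and KRT4 had no read, and KRT1 and KRT13 stayed at or below 0.0751 FPKM.

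**Figure D4:**
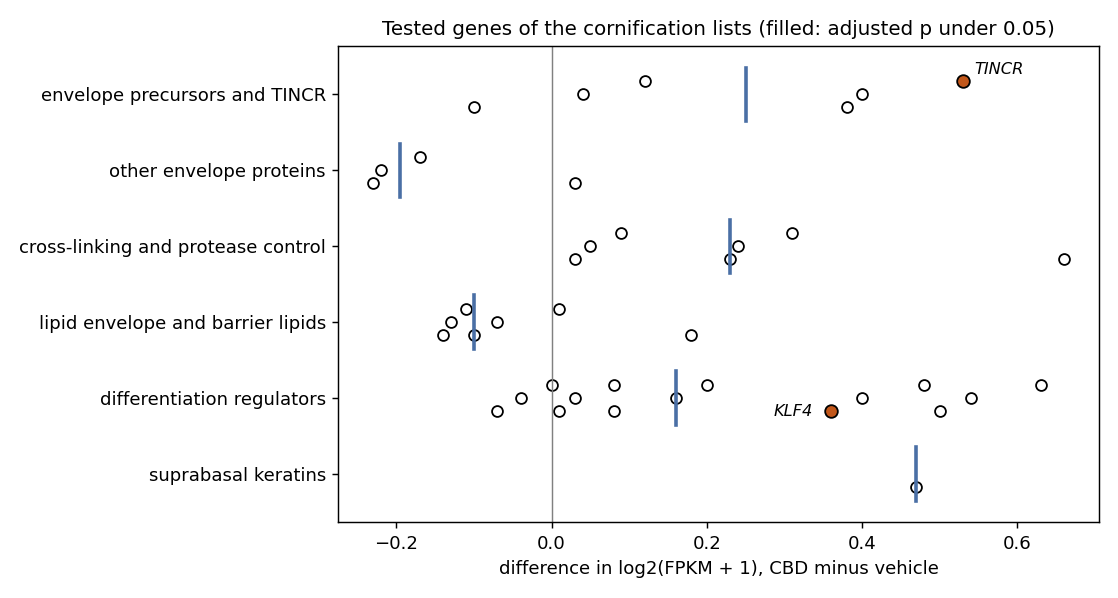
Difference in log2(FPKM + 1), CBD minus vehicle (x axis), of each tested gene (points) in the 10-gene set and in 5 further cornification lists (rows), with the median of each list as a blue line. The filled points, TINCR and KLF4, are the 2 with a limma adjusted p under 0.05.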

How the data were processed

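RNA from 3 CBD and 3 vehicle libraries was analysed from 1 table of FPKM per gene and library, deposited by the authors with no pooling per the file headers. Tools listed in the submitters' processing notes are featureCounts 1.5.0-p3 and HISAT2 2.0.5. The sources used here do not name the authors' build, annotation, strand setting or filters. As deposited, FPKM is relative to each library's total and is not corrected for GC content.

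All 58735 identifiers were found in GENCODE 29 (GRCh38), whose symbols, gene spans and exon-union lengths are used. FPKM times length and 1 factor per library gave whole reads for 100% of values within 0.01 of a read. Floors are 3 reads and cover counting error only. Replicate pairs differed beyond sampling noise (chi-square per gene 3.09 to 18.4), so none was merged.

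Differences were fitted with limma 3.58.1 (R 4.3.3) on log2(FPKM + 1), group as the only term, with an intensity trend in the prior, two-sided. The pipeline was tested on simulated counts that held no GC trend and no outlying library, so that test gives no assurance on either. Exact permutation tests enumerated all splits. There were 19 alternatives, 1 of them chosen after seeing the data (GC trend removed, without vehicle replicate 1). Library quality weights were estimated gene by gene, since limma's default method did not converge. The GC correction was a loess curve of span 0.3 per library. The members and gene lists were chosen with earlier results of these data known. Text names all members, called genes of each list and up to 3 more by smallest adjusted p, and the 5 genes most correlated with TINCR. Of these, 1 is not reported here. STAU1, DSP, TGM2, TGM3, TGM5, KRT1, KRT2, KRT4, KRT13 and the genes at 0 reads were named outside that rule. Promoters are from RefSeq (GRCh38.p14).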

Additional observations from a re-analysis of the deposited data

How the results depend on the processing

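The count of called genes (44 as reported) was 0 with no filter on low values, 732 at a mean FPKM of at least 5, 4 with equal FPKM sums, 73 after quantile normalization, 1 with no intensity trend, 4252 with library quality weights, 1745 by limma-voom and 5 with the GC trend removed. The members called (1 as reported) were 0, 2, 0, 1, 0, 3, 3 and 0 under the same settings in that order, and the other cornification genes called (1 as reported) 0, 4, 0, 1, 0, 17, 10 and 0. Of the 17 with library quality weights 12 were higher and 5 lower. Leaving out 1 library at a time gave 0 to 2351 called genes, 0 to 3 called members and 0 to 12 other cornification genes. Those 12, without vehicle replicate 2, were 11 higher and 1 lower. Without vehicle replicate 1 the called member was PPL, not TINCR. With the GC trend removed and vehicle replicate 1 left out, limma called 0 genes, 0 members and 0 others, though 2279 genes had an unadjusted p under 0.05. The cause of these shifts was not tested. TINCR stayed positive in all 18 of its alternatives (0.37 to 0.69; adjusted p 0.00437 to 0.198) and passed in 6. PPL (0.22 to 0.47) passed in 5 of 19 and EVPL (0.08 to 0.46) in 4 of 19. SPRR1B stayed negative in all 19 (-0.14 to -0.07). TGM1 turned to -0.03 with the GC trend removed, with or without the replicate block, and to -0.00068 with that correction and without vehicle replicate 1. CSTA turned to -0.03 after quantile normalization and to -0.00056 with library quality weights.

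No pairing by replicate number was seen, though such a check cannot exclude a batch shared by number. Deviations of same-numbered CBD and vehicle libraries from their group means correlated at -0.0027, 0.0523 and 0.0235. Differently numbered pairs were at -0.0522 to 0.0282. With the replicate block limma called 0 genes, 0 members and 0 other cornification genes, with 3676 genes at an unadjusted p under 0.05, and likewise 0, 0 and 0 with the block and the GC trend removed. With the block the TINCR difference was 0.53, as without it, at an adjusted p of 0.0889. TINCR rests on 210 to 451 reads per library and SPRR1B on 91 to 104, while SPRR1A, IVL and SPRR3 are limited by the floor of 3 reads.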
